A study of Drosophila melanogaster with 2 samples.

Results

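The 10 genes described here encode transcription factors of the heart and the dorsal mesoderm of the fly: tin, pnr, Mef2, Doc1, Doc2, Doc3, H15, mid, Hand and bap. They were chosen by name, and each was examined over its gene body and 10 kb on either side, out of 13968 protein-coding genes of the annotation. Binding of CHES-1-like, a forkhead protein, was mapped by chromatin immunoprecipitation and sequencing (ChIP-seq) in whole Drosophila melanogaster embryos of mixed sex, aged 0 to 24 h. The embryos came from 1 line with a stable transgene, CHES-1-like fused to GFP at its C terminus, and the fusion was precipitated with an antibody against GFP. The only group holds 2 biological replicates, numbered 2 and 3, and no second condition was compared, so no p-value was computed. Whole embryos mix all tissues and ages, so the lists do not tell in which cells a site was bound.

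In the Drosophila embryo, the NK homeodomain factor Tinman specifies the dorsal mesoderm, from which the heart tube and the visceral muscle arise. The GATA factor Pannier, the Dorsocross T-box factors and the T-box factors H15 and Midline then act with Tinman in cardiac progenitors, the bHLH factor Hand and the MADS-box factor Mef2 in differentiating heart and muscle cells, and the NK factor Bagpipe in the visceral mesoderm. CHES-1-like and another forkhead factor, Jumeau, are known for roles in the specification and division of cardiac progenitors.

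Each deposited list gives 1 line per summit, with a signal that is the authors' own value on the scale of that list and is used here only to rank and describe peaks. The thresholded list, made by the irreproducible discovery rate procedure, held the 4599 strongest of the 30000 entries of the pooled list. Each replicate list also held 30000 entries. A rank of 1 is the strongest entry of a list. The depth of the libraries is unknown, because no file gives read counts.

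Sequence windows of 201 bp, centred on the strongest thresholded summit near each of 7 genes, are shown because these summits fell into 2 kinds. The window of Mef2 is not shown, and Doc1 and bap had no thresholded summit within 10 kb. At mid, Doc2 and H15 that summit lay in intergenic DNA, nearest to the gene's own transcription start site (TSS) among protein-coding genes, but 6590 to 20940 bp away from it. At pnr, Doc3, Hand and tin it lay within 100 bp of the TSS of a neighbouring gene. All are the plus strand of dm6, read from RefSeq's release 6 genome. Capitals mark matches, on either strand, to the forkhead site (NNAAACA with GT, AT, GC or AC as its first letters), the GACGC core known for the FoxN branch of forkhead proteins, the Tinman site (TNAAGTG with C or T as its second letter), the GATA site (NGATAN with A or T first and A or G last), the T-box half-site (GGTGTGA), the E-box (CANNTG), the DRE (TATCGATA) and the Motif 1 core (GGTCACACT). The first 3 windows are chr2L:5476757-5476957 for mid, chr3L:9025736-9025936 for Doc2 and chr2L:5425473-5425673 for H15.
mid: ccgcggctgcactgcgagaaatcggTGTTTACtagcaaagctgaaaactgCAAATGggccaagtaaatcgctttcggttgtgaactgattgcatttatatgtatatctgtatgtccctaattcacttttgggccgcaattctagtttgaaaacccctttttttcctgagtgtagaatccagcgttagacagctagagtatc
Doc2: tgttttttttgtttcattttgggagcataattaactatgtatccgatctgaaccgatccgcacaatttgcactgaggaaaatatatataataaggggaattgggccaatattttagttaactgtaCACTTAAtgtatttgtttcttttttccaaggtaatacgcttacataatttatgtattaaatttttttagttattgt
H15: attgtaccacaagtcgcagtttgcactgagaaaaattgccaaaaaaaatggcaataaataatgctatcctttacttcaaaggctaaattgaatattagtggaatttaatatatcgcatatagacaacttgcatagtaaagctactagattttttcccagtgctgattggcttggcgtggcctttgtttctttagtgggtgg
The other 4 windows are chr3R:16049535-16049735 for pnr, chr3L:8998014-8998214 for Doc3, chr2L:10292336-10292536 for Hand and chr3R:21373509-21373709 for tin.
pnr: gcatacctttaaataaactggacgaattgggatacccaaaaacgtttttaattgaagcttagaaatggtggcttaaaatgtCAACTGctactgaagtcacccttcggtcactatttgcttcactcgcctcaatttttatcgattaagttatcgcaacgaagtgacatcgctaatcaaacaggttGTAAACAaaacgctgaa
Doc3: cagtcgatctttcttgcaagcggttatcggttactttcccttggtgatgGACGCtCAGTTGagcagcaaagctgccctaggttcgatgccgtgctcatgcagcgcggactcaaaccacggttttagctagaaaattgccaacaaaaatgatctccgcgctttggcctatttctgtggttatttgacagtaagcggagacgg
Hand: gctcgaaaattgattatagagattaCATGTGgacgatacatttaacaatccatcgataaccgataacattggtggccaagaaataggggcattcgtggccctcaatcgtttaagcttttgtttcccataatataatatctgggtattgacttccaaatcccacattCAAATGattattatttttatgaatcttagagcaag
tin: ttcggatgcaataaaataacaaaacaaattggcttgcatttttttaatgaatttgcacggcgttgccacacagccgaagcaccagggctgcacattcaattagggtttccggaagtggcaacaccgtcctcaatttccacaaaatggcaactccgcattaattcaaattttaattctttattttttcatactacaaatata
The mid window held a forkhead match from position 26 and an E-box from position 51, counted from 1 at the left end. The pnr window held an E-box from position 82 and a forkhead match from position 185. The Doc2 window held a Tinman match from position 126, and the Doc3 window a GACGC core from position 50 and an E-box from position 56. The Hand window held 2 E-boxes, and the H15 and tin windows held none of these matches.

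Most of the genes had a thresholded summit nearby, and only Mef2 had one at its own start. A thresholded summit stood in the gene body or within 10 kb for 8 of the 10 genes, all but bap and Doc1, against 65.5% of all protein-coding genes. Windows grow with the gene, and among genes under 10 kb it was 5 of 7 listed genes against 64.5% of all such genes. Among genes of 10 kb or more it was 3 of 3 against 71.7%. Within 500 bp of a TSS, a summit stood at 1 of the 10 genes, Mef2, against 25.9% of all protein-coding genes. Of the 8 listed genes with a thresholded summit in the window, 1 also had one at a TSS, against 39.6% of all genes with a summit in the window. With 10 genes, these shares are descriptions.

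The 20 distinct thresholded summits in these windows were of ordinary strength, apart from the first. Their median signal was 127 (lowest 84.8, highest 1129), and that of all 4599 thresholded summits was 130. Of the 20, 2 lay within 500 bp of a TSS of a listed gene, both in Mef2, and 8 lay within 500 bp of the TSS of a neighbour. The other 10 lay over 500 bp from any protein-coding TSS, 5 of them inside a gene and 5 between genes. The share within 500 bp of any such TSS was thus 50% (95% Clopper-Pearson interval 27.2 to 72.8) at the listed genes and 62.9% over all thresholded summits, which lies inside that interval. The share over 2000 bp from any protein-coding TSS was 40% (19.1 to 64.0) at the listed genes and 21.0% over all thresholded summits. The latter also lies inside the interval. The 20 summits lay a median of 542 bp from the nearest protein-coding TSS, and all thresholded summits 182 bp. The windows held a median of 3 other protein-coding genes at the listed genes and 5 at all genes, and its bearing on these distances was not tested. Summits that share a locus are not independent, and 8 of the 20 came from Mef2.

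**Figure D1:**
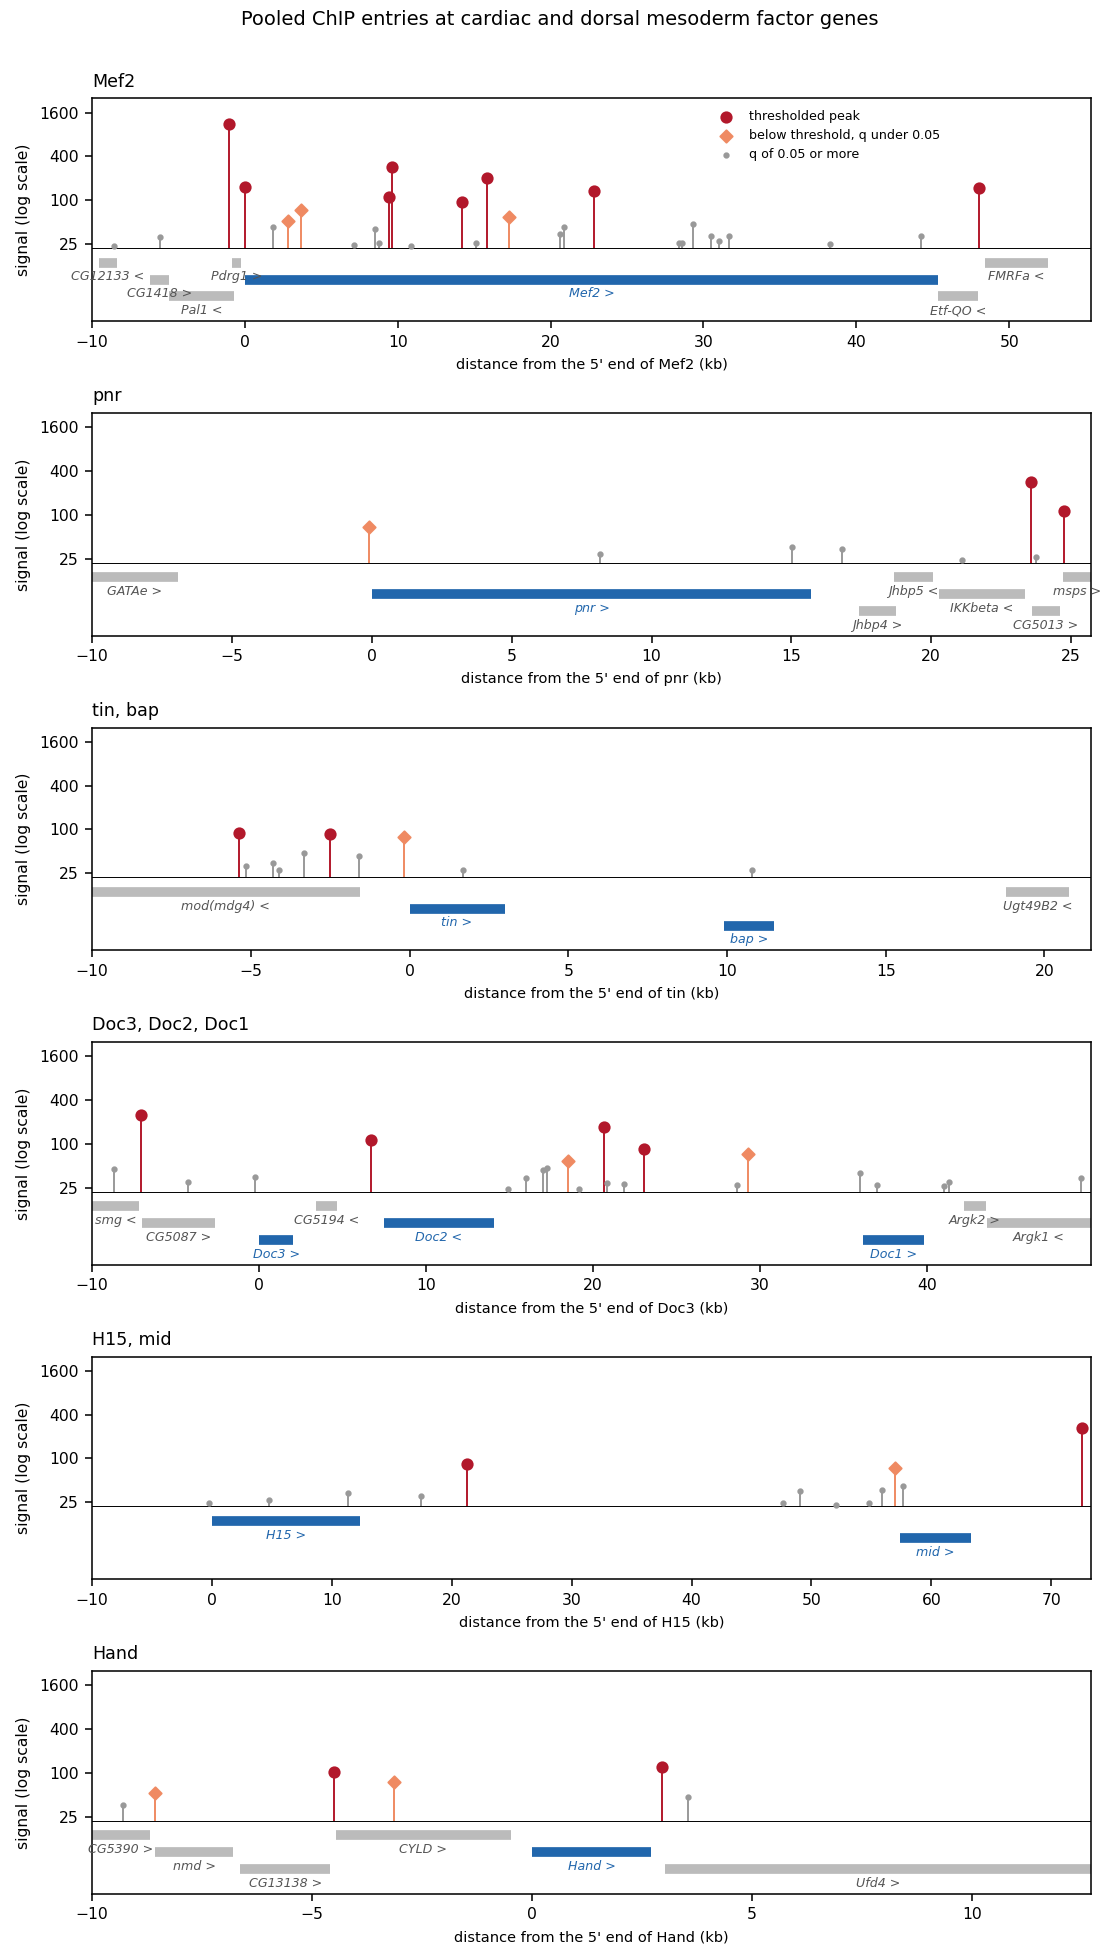
Pooled entries at the 10 genes, with the distance from the 5' end of a named gene in kb on the x axis (positive values run downstream) and the authors' signal on a log y axis. Red circles are thresholded peaks, orange diamonds entries below the threshold with a q-value under 0.05, grey points other entries; blue bars are the listed genes and grey bars their neighbours (the pre-mod(mdg4) genes are not drawn). Mef2 held 8 thresholded summits, while bap and Doc1 had none within 10 kb.

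Mef2 (FBgn0011656; 2R, 9913496 to 9958858 in dm6, minus strand) encodes the MADS-box factor required for muscle differentiation, and it had more thresholded summits than any other listed gene, 8 in its window and 6 in its body. At least 8 summits in the window were found for 78 of the 13968 protein-coding genes, and for 47 of the 1985 genes of 10 kb or more. The body of Mef2 is 45363 bp long and its window 65.4 kb, so neither set is matched to its length. The outermost of its 3 TSSs, at 9958858, had a summit 17 bp away, in the 5' UTR, with a pooled signal of 151 and rank 1695. That summit had a signal of 88.9 in replicate 2 (rank 1642) and of 61.7 in replicate 3 (rank 2057), so both replicates placed it well inside their best 4599 entries. Of the inner TSSs, that at 9944764 had a weaker summit 131 bp away, with rank 3789. Replicate 2 ranked that one 3156 and replicate 3 ranked it 6572, outside its best 4599. The other inner TSS, at 9929615, had no thresholded summit within 500 bp. Its best pooled entry, 55 bp away, had rank 10484 and a q-value of 0.103. Replicate 2 held an entry 177 bp from this TSS with rank 7624 and a q-value of 0.0142. In replicate 3, the best entry there had rank 12800 and a q-value of 0.270.

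The other 4 summits inside Mef2 lay over 500 bp from its starts. The strongest, at 9949212 in an intron, stood 4448 bp from the nearest Mef2 TSS with a pooled signal of 283 and rank 481. It had a signal of 138 in replicate 2 (rank 674) and of 142 in replicate 3 (rank 334). A second summit in the same intron, at 9949432, had rank 3030 and the peaks of the pair overlap, so they may be 1 site. The summit at 9943001, in a 5' UTR exon 1763 bp from a TSS, had a signal of 204 and rank 947, with ranks 901 in replicate 2 and 1131 in replicate 3. The intronic summit at 9936020 had rank 2147 and was ranked higher by replicate 2 (1706) than by replicate 3 (4098).

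Both remaining summits in the Mef2 window stood at other genes. The strongest peak near any listed gene, with a signal of 1129 and rank 19, lay 1057 bp upstream of Mef2 at 9959915. Its nearest TSS, 163 bp away, belongs to Pal1, a peptide-amidating lyase gene, in whose intron it lay. The start of Pdrg1, at 9959732 on the minus strand, also lay within 500 bp of this peak. Replicate 2 gave it a signal of 623 and rank 20, and replicate 3 a signal of 505 and rank 14. The summit at 9910857 stood 36 bp from a TSS of Etf-QO, a mitochondrial flavoprotein oxidoreductase gene, and 2639 bp beyond the 3' end of Mef2, with rank 1779.

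mid (FBgn0261963; 2L, 5461639 to 5467610, plus strand) and H15 (FBgn0016660; 2L, 5404280 to 5416593, plus strand) are neighbouring T-box genes, related to the vertebrate Tbx20 gene, with 45045 bp between their bodies and no other protein-coding gene within 10 kb of either. Each had 1 thresholded summit, on the downstream side, and none stood at a start. The summit near mid, shown above with its forkhead match, lay 9247 bp beyond the 3' end and 15218 bp from the TSS of mid, with a pooled signal of 263 and rank 549. It had a signal of 165 in replicate 2 (rank 469) and of 99.8 in replicate 3 (rank 758). It was the strongest of the 5 intergenic summits away from a TSS. The nearest start of any annotated gene was that of lncRNA:CR45287, a long non-coding RNA gene, 10048 bp away. The summit near H15 lay 8980 bp beyond its 3' end and was close to the threshold, with a signal of 84.8 and rank 4558 of 4599. Replicate 2 ranked it 3339 with a signal of 59.9 and replicate 3 ranked it 11121 with a signal of 23.0, so only replicate 2 held it among its best 4599 entries.

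The 3 Dorsocross genes, T-box genes required for heart and amnioserosa development, lie in 1 cluster on 3L with Doc3 (FBgn0035954; 9005196 to 9007249, plus strand), Doc2 (FBgn0035956; 9012686 to 9019246, minus strand) and Doc1 (FBgn0028789; 9041375 to 9045042, plus strand). The cluster with 10 kb on each side, 59.9 kb in all, held 4 thresholded summits, none at a start of the 3 genes. The strongest that lay nearest to one of them stood 6590 bp upstream of Doc2, in the long gap towards Doc1, with a pooled signal of 171 and rank 1365. It had a signal of 96.1 in replicate 2 (rank 1408) and of 74.2 in replicate 3 (rank 1480), nearly the same rank in both. A weaker one, 9011 bp upstream of Doc2, had a signal of 85.0 and rank 4541, and ranked 4808 in replicate 2 and 5018 in replicate 3, just outside the best 4599 of each. Between Doc3 and Doc2, a summit 758 bp beyond the 3' end of Doc2 and 4679 bp beyond that of Doc3 had a signal of 113 and rank 2893. It counts for both genes, and its nearest TSS was that of CG5194.

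The strongest peak of the Dorsocross cluster lay between the starts of the neighbours CG5087 and smg. It stood 7082 bp upstream of Doc3 and 70 bp from the TSS of CG5087. The start of smg, at 8997989 on the minus strand, also lay within 500 bp of it. The peak had a pooled signal of 248 and rank 624. Replicate 2 gave it a signal of 131 and rank 740, and replicate 3 a signal of 122 and rank 476. Doc1 had no thresholded summit in its window, and the nearest lay 13118 bp from its TSS. Its strongest pooled entry, 6884 bp upstream, had a signal of 72.0, rank 5782 and a q-value of 0.000951. That entry had ranks 6858 in replicate 2 and 5354 in replicate 3, so neither replicate held it among its best 4599.

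pnr (FBgn0003117; 3R, 16026079 to 16041796, plus strand) encodes the GATA factor that patterns the dorsal ectoderm and the cardiac mesoderm, and both thresholded summits in its window stood at promoters of other genes. The stronger lay 7839 bp beyond its 3' end and 35 bp from the TSS of CG5013. The start of IKKbeta, at 16049421 on the minus strand, also lay within 500 bp of that summit. The stronger summit had a pooled signal of 284 and rank 478. It had a signal of 155 in replicate 2 (rank 527) and of 130 in replicate 3 (rank 402). The weaker lay 11 bp from a TSS of msps, a microtubule polymerase gene, with a signal of 112 and rank 2939. At the start of pnr itself, the best pooled entry lay 103 bp upstream with a signal of 67.6, rank 6315 and a q-value of 0.00230. It had rank 5071 in replicate 2. In replicate 3, the best entry within 500 bp of that start lay 28 bp inside the gene and had rank 24543, so the replicates placed this start very differently.

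Hand (FBgn0032209; 2L, 10292679 to 10295385, minus strand) encodes a bHLH factor of heart and blood precursor cells and lies close between other genes. Its 2 thresholded summits stood at 71 bp from a TSS of Ufd4, a ubiquitin ligase gene, and at 43 bp from a TSS of CYLD, a deubiquitinase gene. The Ufd4 summit lay 243 bp beyond the 3' end of Hand, with a signal of 119 and rank 2651, and ranked 2657 in replicate 2 and 2246 in replicate 3. The CYLD summit lay 4505 bp upstream of Hand, with a signal of 103 and rank 3354. Its ranks were 2531 in replicate 2 and 7059 in replicate 3. No pooled entry lay within 500 bp of the Hand TSS.

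tin (FBgn0004110; 3R, 21378977 to 21381970, plus strand) and bap (FBgn0004862; 3R, 21388880 to 21390449, plus strand), both NK homeobox genes, lie 6909 bp apart. The 2 thresholded summits near tin lay inside mod(mdg4), an insulator protein gene upstream of it, and both were weak. The one 5368 bp upstream of tin stood 34 bp from a TSS of pre-mod(mdg4)-AA, with a signal of 90.1 and rank 4107. Its rank was 3174 in replicate 2 and 10116 in replicate 3. The one 2496 bp upstream of tin stood 920 bp from a TSS of mod(mdg4), with a signal of 87.6 and rank 4306. Here the replicates stood the other way round, with rank 9129 in replicate 2 and 2649 in replicate 3. Neither summit near tin was thus among the best 4599 of both replicates.

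The start of tin carried an entry just below the threshold. It lay 165 bp upstream of the TSS, with a pooled signal of 77.5, rank 5192 and a q-value of 0.000674. It ranked 5303 in replicate 2 with a signal of 44.1 and 6404 in replicate 3 with a signal of 31.6, the 2 replicates placing it alike. bap had only 2 pooled entries in its window, the better of them in its own coding sequence with a signal of 27.6, rank 23319 and a q-value of 0.627. The nearest thresholded summit lay 12399 bp from its TSS.

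Over the whole pooled list, 9026 entries had a q-value under 0.05, of which 4599 were thresholded. Below the threshold, the listed genes had 10 such entries, ranked between 5192 and 8991. Among them were the entries at the starts of tin (rank 5192), mid (rank 5608, 364 bp upstream, with ranks 6511 in replicate 2 and 6799 in replicate 3) and pnr (rank 6315). With all pooled entries of q under 0.05, 4 of the 10 genes had an entry within 500 bp of a TSS (tin, pnr, Mef2 and mid), against 38.6% of all protein-coding genes. In the window, 9 of 10 had one, all but bap, against 77.3%. Just inside the threshold stood the summits near Doc2 (rank 4541) and H15 (rank 4558). The remaining pooled entries in the windows had q-values of 0.05 or more, and the windows held 88 pooled entries in all.

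The count of genes with a summit depended on how far from the gene it was taken, for the listed genes as for all genes. In the gene body alone it was 1 of 10, Mef2, against 13.5% of all protein-coding genes. Within 2 kb it was 3 of 10 against 40.3%, and within 20 kb it was 10 of 10 against 78.3%. Measured from a TSS, a thresholded summit lay within 5000 bp at 3 of 10 genes and 48.0% of all genes, and within 20000 bp at 9 of 10 genes and 76.3% of all. The median distance from a TSS to the nearest thresholded summit was 9566 bp for the listed genes and 5551 bp for all. When a summit counted only for the gene of the nearest TSS, 4 of the 10 genes had one in the window (Mef2, Doc2, mid and H15), against 23.5%. Among the strongest 50% of thresholded summits it was 5 of 10 against 47.3%.

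**Figure D2:**
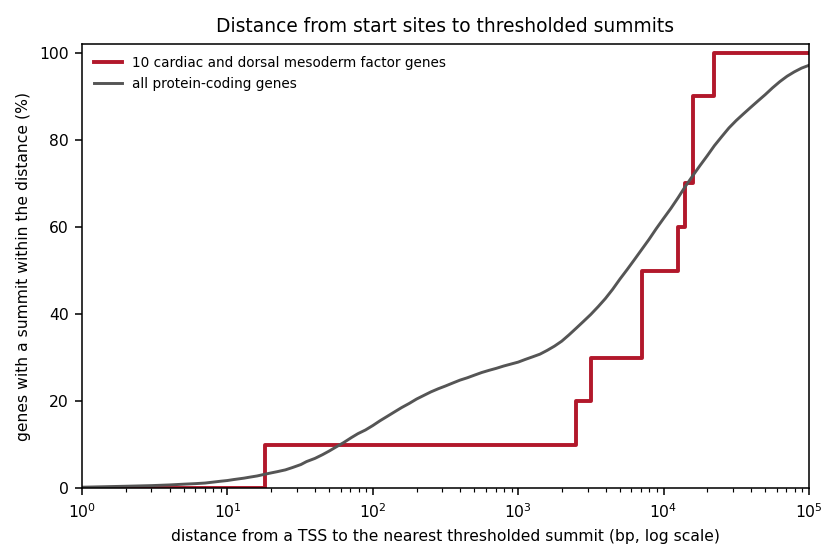
Share of genes, in percent on the y axis, with a thresholded summit within a given distance of a TSS, in bp on a log x axis, for the 10 listed genes (red steps) and all protein-coding genes (grey line). The red line stays at 1 of 10 genes from 17 bp, the Mef2 summit, until the tin summit at 2496 bp.

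Both replicates held every one of the 20 summits in their whole lists, within 100 bp, against 94.0% of all thresholded summits. Of the 30000 entries of each whole list, 9439 in replicate 2 and 7650 in replicate 3 had a q-value under 0.05. In replicate 3, the matches of the H15 summit (q-value 0.183) and of the summit 5368 bp upstream of tin (0.141) were not among these. The thresholded list was made from the pooled list and both replicate lists, so a high share is partly given by construction. At 100 bp, 161 of all thresholded summits matched replicate 2 alone and 113 matched replicate 3 alone. Peaks that overlap but have summits further apart go unmatched, so these counts do not show what the procedure required. Among the best 4599 entries of both replicates were 13 of the 20 (65%, 40.8 to 84.6), against 69.4% of all thresholded summits. The 7 others were both summits near tin, that of H15, the CYLD summit near Hand, the weaker summit upstream of Doc2, and the Mef2 summits at 9949432 and 9944633. The larger of both replicate ranks was a median of 1.58 times the smaller, and 1.47 times over all thresholded summits found in both. With the best 4599 entries of replicate 2 alone, 8 of the 10 genes had a summit in the window against 64.9% of all genes, and with those of replicate 3 alone 7 of 10 against 65.0%.

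**Figure D3:**
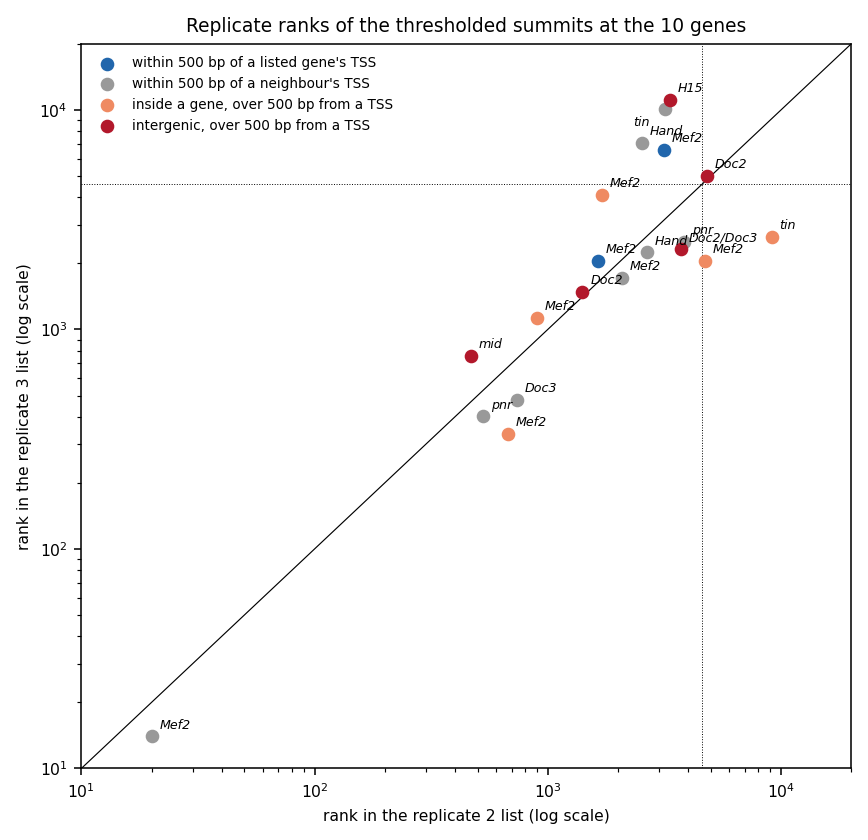
Rank of each of the 20 thresholded summits in the replicate 2 list (x axis) and the replicate 3 list (y axis), both on log scales, coloured by location; the diagonal marks equal ranks and the dotted lines rank 4599. The strongest summit ranked 20 and 14, and the 2 summits near tin stood on opposite sides of the diagonal.

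Motif matches were counted on both strands in the 20 windows of 201 bp and in all thresholded windows. A match describes the letters of a window and does not show that a factor binds there. A forkhead site stood in 5 of 20 (25%, 8.66 to 49.1), against 29.4% of all 4599 windows, and the 5 were the windows of mid, of CG5013 near pnr and of 3 intronic summits of Mef2. The GACGC core stood in 5 of 20 (25%) against 16.1%, and an E-box in 12 of 20 (60%) against 63.3%. Among sites known for the listed factors themselves, the GATA site stood in 4 of 20 (20%, 5.73 to 43.7) against 33.8%, the Tinman site in 1 of 20 against 7.70%, the T-box half-site in 1 of 20 against 2.61% and the MEF2 site in 0 of 20 against 8.11%. Of promoter elements, the Motif 1 core, an element bound by M1BP, stood in 2 of 20 against 4.26%, at the start of Mef2 and at msps, and the DRE in 0 of 20 against 6.76%. The GAGA element (GAGAGAG) stood in 1 of 20 against 4.54% and the Zelda site (CAGGTAG) in 0 of 20 against 0.891%. A count of 0 of 20 allows a share of up to 16.8%. Every share over all windows lay inside the interval at the listed genes. Median GC content was 39.3% over the 20 windows and 38.8% over all windows.

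**Figure D4:**
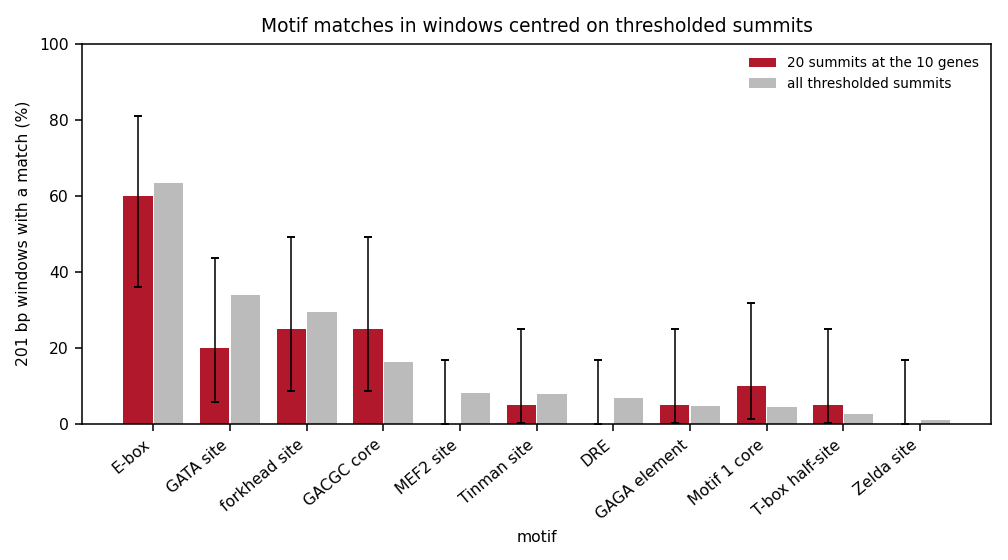
Share of 201 bp summit windows with a match to each of 11 motifs, in percent, for the 20 summits at the listed genes (red bars, with 95% Clopper-Pearson intervals) and all 4599 thresholded summits (grey bars). The grey bar lies inside the red interval for each motif.

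Other genes of heart and dorsal mesoderm development were counted the same way. Of 28 such genes, which include mesoderm determinants, signals, receptors and muscle or heart identity factors, 20 (71.4%) had a thresholded summit in the window, against 65.5% of all protein-coding genes, and 6 (21.4%) had one at a TSS, against 25.9%. Both shares lie near those of all genes, but they describe this list only. It was chosen with earlier results of these data known and includes CHES-1-like, ush and polo, each with a summit at a TSS. The strongest at a TSS stood at CHES-1-like itself, the tagged gene (signal 682, rank 63), at ush, which encodes a cofactor of GATA proteins (174, rank 1332), at polo, a mitotic kinase gene (133, rank 2187), and at robo2, a Slit receptor gene (98.8, rank 3579). The strongest anywhere in the window were those of ush (rank 1) and CHES-1-like (rank 63). Next came slp1, a forkhead gene (signal 349, rank 297), and zfh1, a zinc finger and homeobox gene (signal 328, rank 343). The nearest TSS of these window summits is not given here, and slp1 and zfh1 had no thresholded summit within 500 bp of their own. The 8 without one were the mesoderm determinants twi and sna, the FGF receptor gene htl, the Wnt gene wg, the homeobox and nuclear receptor genes lbe, lbl and svp, and Him, a regulator of muscle differentiation.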

How the data were processed

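CHES-1-like-GFP ChIP-seq was deposited as peak lists for 2 samples of 1 group. The thresholded, pooled and both replicate dm6 lists were used; the dm3 lists were not used here, and coordinates were not converted. The signal of each peak and the −log10 of its q-value are the authors' deposited values. Per the deposited manifests, a control library entered each replicate list and the pooled list of both libraries, and these 3 lists gave the thresholded one by the irreproducible discovery rate procedure. The aligner, the peak caller and the way the signal was normalized were not given in the sources used here.

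Each summit (start plus offset, counted from 1) was placed on Ensembl annotation release 115 of genome release 6. Summits within 100 bp were matched between lists. A gene's window was its body and 10 kb on each side. Shares carry exact intervals at 95%, which cover counting over summits only. The members, the gene lists and the motifs were chosen with earlier results of these data known. The rule for named summits took the 4 strongest thresholded ones of each gene, or its best pooled entry; the 4 weaker ones of Mef2 and the entries at starts were named after their values were seen. The other heart genes are named by the 4 strongest summits at a TSS and in the window; those without a summit were named after their values were seen, and lea was matched to its current symbol robo2. Counting, matching and motif search were tested on simulated data. Alternatives covered windows, thresholds, replicates, matching and sequence length, with 2 added after seeing the data. Versions were matplotlib 3.10.9, scipy 1.17.1, pandas 2.3.3, numpy 2.4.6 and Python 3.11.15.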

Additional observations from a re-analysis of the deposited data

How the results depend on the processing

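Of 78 alternative values, 62 stayed within 1.5 times the reported count or rank, or inside the interval of the reported share. The 8 genes with a thresholded summit and their 20 summits became 1 gene and 6 summits in gene bodies alone, 3 and 9 within 2 kb, 5 and 10 in the strongest 50% of peaks, and 4 and 10 by the nearest TSS, all of which take fewer summits by construction. Genes bound at a TSS became 4 in place of 1 with all pooled entries of q under 0.05. The share of summits found in both replicates, 100%, became 80% within 50 bp and 65% among the best 4599 entries of each. The best rank was 2649 for tin in replicate 3 in place of 4107, 11121 for H15 in replicate 3 in place of 4558, and 14907 for bap in replicate 2 in place of 23319; the cause was not tested. T-box and GAGA matches became 0% in windows of 50 bp on each side. With replicate 2 or replicate 3 left out, 7 to 8 genes had 16 to 17 summits, 1 was bound at a TSS, and 50% to 58.8% of summits lay within 500 bp of a TSS. No paired analysis was possible because there is only 1 group. The unknown depth limits what an absent peak means.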
